A study of Arabidopsis thaliana with 6 samples.

Results

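The 10 genes described here encode enzymes of jasmonate synthesis, methylation and conjugation, and were taken by locus code from a table of read counts over 33602 loci. They are the lipoxygenase genes *LOX2*, *LOX3*, *LOX4* and *LOX6*, the allene oxide synthase gene *AOS*, the allene oxide cyclase genes *AOC1* and *AOC2*, the reductase gene *OPR3*, the methyltransferase gene *JMT* and the conjugating enzyme gene *JAR1*. All 10 were in the table and passed the filter on low counts. The list was put together with earlier results of the same comparison known, so the genes were in effect chosen by read counts of these libraries, and their counts and fold changes are a description and not an independent test.

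The samples were *Arabidopsis thaliana* stem bases, cut as fragments of 1 cm, and gave 3 RNA libraries labelled *smxl4 smxl5* and 3 labelled wild type. Shoots of both genotypes had been grafted as seedlings onto wild-type roots, grown at 22 °C in short days and then in long days, and sampled at a height of 15 to 20 cm, with 3 stem fragments pooled in each library. *SMXL4* and *SMXL5* are related genes known to promote phloem formation, and the study compared mutant with wild-type stems. The alleles, and whether the pools came from separate batches of plants, are not given in the labels. The p-values thus set the difference between the genotypes against the spread among these pools, which may not be independent batches.

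Library totals ran from 21364628 to 36133200 counts in the *smxl4 smxl5* libraries and from 33749559 to 49929595 in the wild-type libraries. The mutated genes themselves were not lower. *SMXL4* had 11.2 to 15.3 CPM (read counts scaled to the size of the library) in the *smxl4 smxl5* libraries and 10.2 to 12.1 CPM in wild type, and *SMXL5* had 82.0 to 116 CPM in the *smxl4 smxl5* libraries and 97.5 to 112 CPM in wild type. A count over a whole gene does not show whether its transcript is interrupted, so the counts do not check the genotype, and the libraries labelled *smxl4 smxl5* are called mutant-labelled below. Of 20296 genes tested with edgeR's quasi-likelihood method, 24.9% were called at a threshold of 0.05 on the adjusted p, with 11.2% higher and 13.7% lower in the mutant-labelled libraries.

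Jasmonates are lipid-derived hormones of wound response, defence and flower fertility. In plastids, lipoxygenases oxygenate linolenic acid, and allene oxide synthase and allene oxide cyclase turn the product into the precursor OPDA. In peroxisomes, OPR3 reduces OPDA and beta-oxidation shortens it to jasmonic acid. JAR1 joins jasmonic acid to isoleucine, which gives the form that the receptor COI1 binds, and JMT methylates jasmonic acid to methyl jasmonate.

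The genomic sequence upstream of the genes was read from TAIR10.1 for 6 of them, chosen because *JMT* and *LOX2* had the largest fold changes and because *LOX3* with *LOX4*, and *AOC1* with *AOC2*, are related pairs whose counts ran close together. Each line holds the 250 bases before the RefSeq start of the gene, 5′ to 3′ on the strand of the gene, with capitals for the G-box CACGTG and its variants AACGTG and CACATG on either strand, motifs known to be bound by MYC-type factors.
*JMT*, chr1:6791920-6792169, minus strand: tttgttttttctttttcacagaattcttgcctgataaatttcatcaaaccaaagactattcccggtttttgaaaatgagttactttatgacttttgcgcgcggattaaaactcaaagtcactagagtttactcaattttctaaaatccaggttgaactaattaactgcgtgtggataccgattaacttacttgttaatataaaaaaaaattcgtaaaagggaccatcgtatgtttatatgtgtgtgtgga
*LOX2*, chr3:16524995-16525244, plus strand: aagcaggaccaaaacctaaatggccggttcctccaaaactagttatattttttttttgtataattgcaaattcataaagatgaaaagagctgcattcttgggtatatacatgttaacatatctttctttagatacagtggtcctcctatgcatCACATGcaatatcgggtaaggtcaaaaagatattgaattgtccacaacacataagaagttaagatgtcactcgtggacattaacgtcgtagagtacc
*LOX3*, chr1:5977073-5977322, plus strand: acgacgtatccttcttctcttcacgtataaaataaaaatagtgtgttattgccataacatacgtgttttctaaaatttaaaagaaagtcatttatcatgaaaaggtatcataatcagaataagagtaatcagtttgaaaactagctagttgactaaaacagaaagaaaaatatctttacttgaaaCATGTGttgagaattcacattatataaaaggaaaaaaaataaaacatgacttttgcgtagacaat
*LOX4*, chr1:27308263-27308512, plus strand: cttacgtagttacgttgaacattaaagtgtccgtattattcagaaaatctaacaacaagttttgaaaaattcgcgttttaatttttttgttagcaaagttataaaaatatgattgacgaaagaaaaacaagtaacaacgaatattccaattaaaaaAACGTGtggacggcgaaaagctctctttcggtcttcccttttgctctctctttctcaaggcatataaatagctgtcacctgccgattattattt
*AOC1*, chr3:9403529-9403778, plus strand: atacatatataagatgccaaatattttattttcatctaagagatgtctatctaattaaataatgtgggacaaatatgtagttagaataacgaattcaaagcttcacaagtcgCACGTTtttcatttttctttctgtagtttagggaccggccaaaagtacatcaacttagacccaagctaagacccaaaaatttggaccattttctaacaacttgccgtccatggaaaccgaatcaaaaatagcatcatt
*AOC2*, chr3:9406419-9406668, plus strand: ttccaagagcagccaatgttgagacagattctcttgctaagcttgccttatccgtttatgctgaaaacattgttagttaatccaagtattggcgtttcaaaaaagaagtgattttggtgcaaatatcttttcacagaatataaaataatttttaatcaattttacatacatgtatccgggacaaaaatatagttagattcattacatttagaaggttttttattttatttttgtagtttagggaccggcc

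The motifs were counted in a window of 300 bases that also held the first 50 bases of each gene. At least 1 of the 3 motifs was found in 7 of the 10 genes, against 26.4% of the windows of 27443 protein-coding genes. CACGTG was found in 1 of the 10, the window of *AOS*, where it begins 6 bases before the start, and in 7.68% of all windows. AACGTG was found in 4 (*LOX3*, *LOX4*, *AOC1* and *AOC2*) and in 8.95% of all windows, and CACATG in 3 (*LOX2*, *LOX3* and *JAR1*) and in 12.9% of all windows. *LOX6*, *OPR3* and *JMT* held none of these letters in the window. A match is a string of letters and not a measured binding site.

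Over all 45 pairs of the 10 genes the longest identical run had a median of 9 bases, and 2 pairs stood above the rest, whose runs had 12 bases or fewer, other lipoxygenase pairs included. *AOC1* and *AOC2* shared 26 bases, which begin 117 bases before the start of *AOC1* and 19 before that of *AOC2*, and *LOX3* and *LOX4* shared 16 bases, which begin at base 17 after the start of *LOX3* and 96 bases before that of *LOX4*. The run of the lipoxygenase pair holds AACGTG in capitals.
*AOC1* and *AOC2* shared run: tgtagtttagggaccggccaaaagta
*LOX3* and *LOX4* shared run: aaAACGTGtggacggc

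Of the 10 genes, 4 rose in the mutant-labelled libraries (*JMT*, *LOX2*, *AOC2* and *AOC1*), 0 fell and 6 did not pass the test. The share of all tested genes that rose was 11.2%, and 1.91% rose by at least 1 on the log2 scale, as these 4 did. All 10 had a positive log2 fold change, with a median of 0.60, where the median over all tested genes was 0.02. The libraries of the 2 genotypes did not overlap for 6 genes, all higher in the mutant-labelled libraries, as held for 23.3% of all tested genes in that direction. Without wild type replicate 2 only *LOX2* and *JMT* were called higher, beside 597 of all genes. *AOC1* and *AOC2* kept log2 fold changes of 1.06 and 1.18 there but did not pass the threshold (edgeR adjusted p = 0.0858 and 0.0602). Over the other libraries left out in turn, 3 to 5 of the 10 were called higher, beside 884 to 2423 of all genes. The fit with all libraries called 2282 genes higher. In a bulk sample, a change in the number of cells that express a gene and a change in its RNA per cell cannot be told apart.

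**Figure D1:**
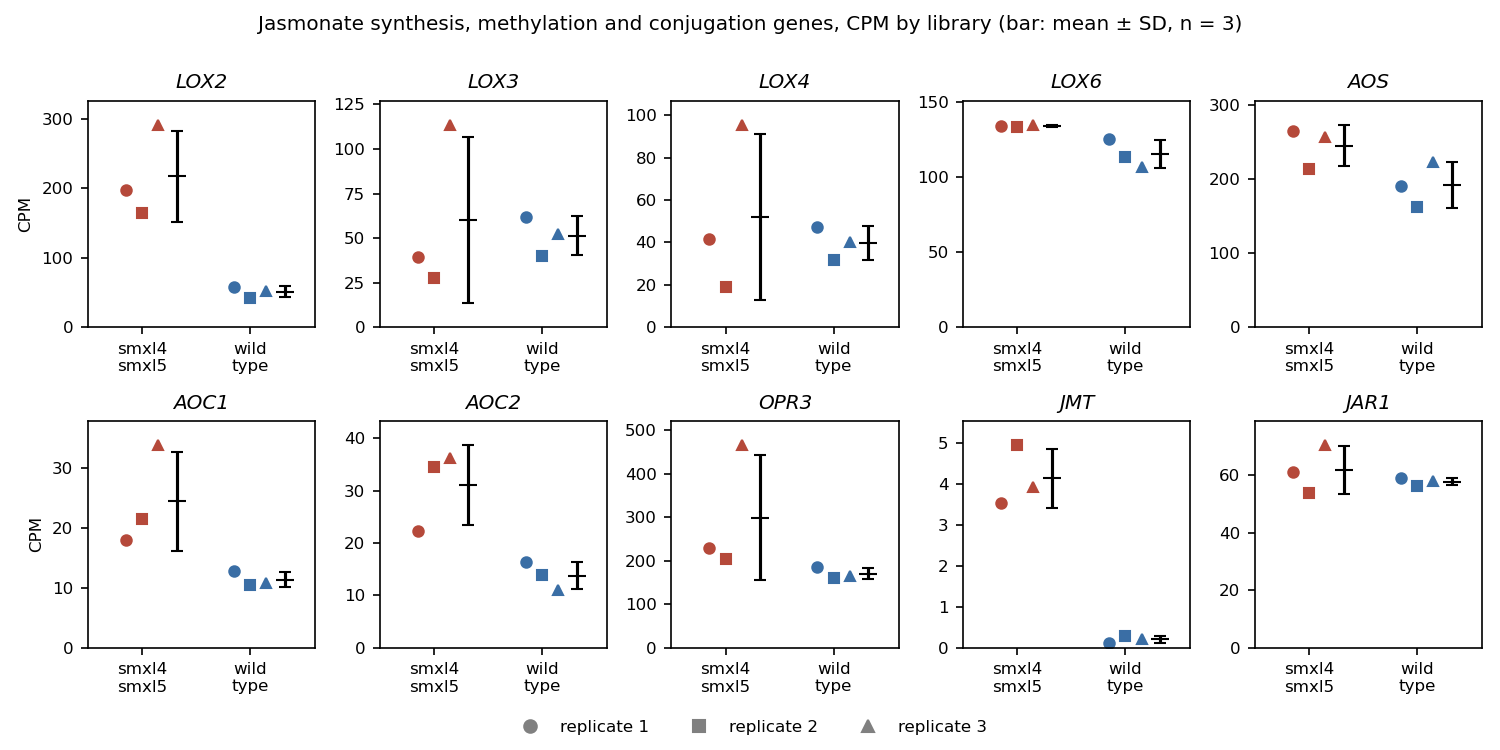
Level of each gene in CPM (y axis, from 0, a scale of its own in each panel) in the mutant-labelled libraries on the left and the wild-type libraries on the right of each panel, with 1 point per library, its shape giving the replicate, and a bar for the mean ± SD (n = 3). The mutant-labelled points of *LOX2* lie at 164 CPM or above and the wild-type points at 58.3 CPM or below, while for *LOX3*, *LOX4* and *OPR3* the triangle of mutant-labelled replicate 3 lies far above the other libraries.

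The lipoxygenases carry out the first step. *LOX2* (AT3G45140; TAIR10.1 chromosome 3, 16525245 to 16529352, plus strand), known for the rapid jasmonate burst of wounded leaves, had 198, 164 and 291 CPM in the mutant-labelled libraries and 58.3, 42.4 and 52.8 CPM in wild type. Every mutant-labelled library was above every wild-type library. The means of 218 ± 65.6 CPM in the mutant-labelled libraries and 51.2 ± 8.07 CPM in wild type (SD, n = 3 each) gave a log2 fold change of 2.09 ± 0.24 (SE; edgeR adjusted p = 0.00395), and *LOX2* was called in all 10 alternative settings.

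*LOX3* (AT1G17420; chromosome 1, 5977323 to 5981521, plus strand) and *LOX4* (AT1G72520; chromosome 1, 27308513 to 27312756, plus strand) are close relatives known to act together in male fertility. *LOX3* had 39.6, 27.4 and 113 CPM in the mutant-labelled libraries and 61.8, 39.9 and 52.4 CPM in wild type. *LOX4* followed the same pattern, with 41.8, 18.8 and 95.2 CPM in the mutant-labelled libraries and 47.5, 31.6 and 40.3 CPM in wild type. In both genes mutant-labelled replicate 3 was the highest of all libraries and mutant-labelled replicate 2 the lowest, so the groups overlapped. Their log2 fold changes were 0.23 ± 0.55 and 0.39 ± 0.57 (edgeR adjusted p = 0.781 and 0.640), with 95% intervals from -1.12 to 1.59 and from -1.012 to 1.799. The sign rested on mutant-labelled replicate 3, since without it the log2 fold changes were -0.61 and -0.38, also not called (edgeR adjusted p = 0.107 and 0.508). Over all alternatives the adjusted p ran from 0.107 to 0.972 for *LOX3* and from 0.235 to 0.857 for *LOX4*.

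*LOX6* (AT1G67560; chromosome 1, 25319804 to 25324581, plus strand), known from leaf xylem and long-distance wound signalling, hardly varied among the mutant-labelled libraries. It had 134, 134 and 135 CPM in the mutant-labelled libraries and 126, 113 and 107 CPM in wild type. The groups did not overlap, but the difference was small, with a log2 fold change of 0.22 ± 0.08 (95% interval 0.03 to 0.41; edgeR adjusted p = 0.0829).

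The make-up of the lipoxygenase transcripts differed between the genotypes. Per kilobase of exon, *LOX2* took 47.7%, 47.9% and 45.3% of the summed CPM of the 4 lipoxygenase genes in the mutant-labelled libraries and 19.7%, 18.6% and 20.7% in wild type. *LOX6* took 31.5%, 37.9% and 20.4% in the mutant-labelled libraries and 41.3%, 48.3% and 40.8% in wild type. The share of *LOX2* was thus nearly constant within each genotype, also in mutant-labelled replicate 3, where *LOX3* and *LOX4* were high. The sum itself was 128, 106 and 198 CPM per kilobase in the mutant-labelled libraries and 91.2, 70.3 and 78.5 CPM per kilobase in wild type.

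**Figure D2:**
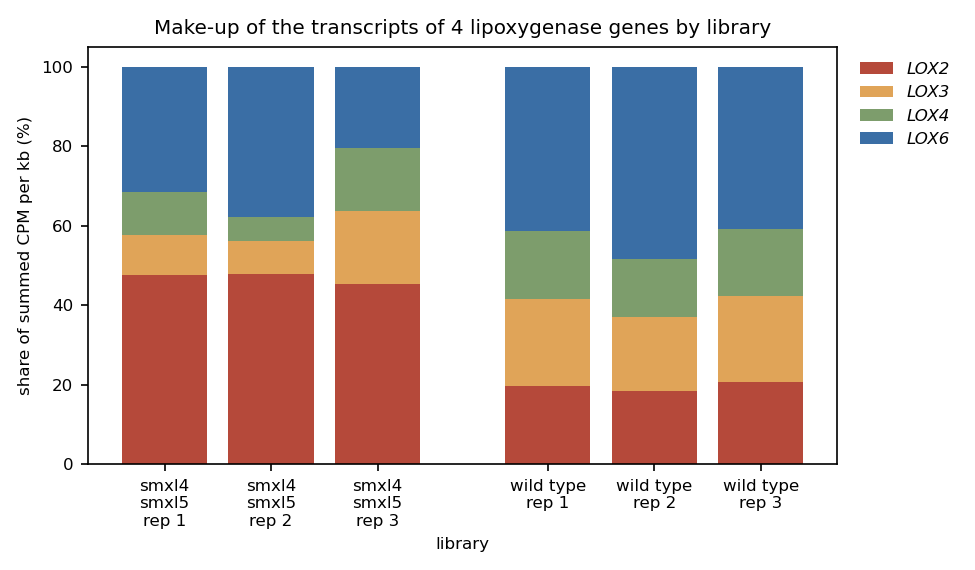
Share of each of the 4 lipoxygenase genes in their summed CPM per kilobase of exon (y axis, percent) in each library, mutant-labelled libraries on the left and wild type on the right. The *LOX2* segment spans 45.3% to 47.9% in the mutant-labelled libraries and 18.6% to 20.7% in wild type.

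Allene oxide synthase and the cyclases act next. *AOS* (AT5G42650; chromosome 5, 17097564 to 17099595, minus strand), the only gene of its kind in this plant, had 265, 214 and 257 CPM in the mutant-labelled libraries and 190, 162 and 224 CPM in wild type. Mutant-labelled replicate 2 lay below wild type replicate 3, so the groups overlapped. The log2 fold change was 0.35 ± 0.14 (95% interval 0.04 to 0.67; edgeR adjusted p = 0.0937), which passed the threshold at 0.47 without wild type replicate 3 (edgeR adjusted p = 0.0395, with 0.276 as the highest over all alternatives).

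*AOC1* (AT3G25760; chromosome 3, 9403779 to 9405338) and *AOC2* (AT3G25770; chromosome 3, 9406669 to 9408071) lie in tandem on the plus strand, 1330 bases apart, and are followed after 1088 bases by *AOC3*. *AOC1* had 17.99, 21.4 and 33.7 CPM in the mutant-labelled libraries and 12.7, 10.4 and 10.7 CPM in wild type. *AOC2* had 22.2, 34.4 and 36.3 CPM in the mutant-labelled libraries and 16.3, 13.8 and 11.1 CPM in wild type. Neither gene overlapped between the genotypes. The fold changes were also close, at 1.11 ± 0.24 for *AOC1* and 1.18 ± 0.22 for *AOC2* on the log2 scale (edgeR adjusted p = 0.0205 and 0.0140). *AOC1* was not called without wild type replicate 1, 2 or 3, with log2 fold changes from 1.06 to 1.20 and adjusted p of 0.0588, 0.0858 and 0.0595, and *AOC2* was not called without wild type replicate 2 (1.18, adjusted p = 0.0602). Their adjusted p over all alternatives ran from 2.36e-05 to 0.0858 and from 1.57e-06 to 0.0602. The longest transcripts of the pair are 86.1% identical over 973 bases but share no identical run of 100 bases. The longest transcripts of the 10 genes likewise shared no such run with the longest transcript of any other locus.

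The remaining cyclase genes, which were not on the list of 10, did not pass the test. *AOC3* had 116, 78.3 and 140 CPM in the mutant-labelled libraries and 72.8, 45.1 and 86.1 CPM in wild type (0.71 ± 0.30 on the log2 scale, edgeR adjusted p = 0.139). *AOC4* on chromosome 1, singled out after its values were seen, differed by 0.10 ± 0.09 on the log2 scale (edgeR adjusted p = 0.426).

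*OPR3* (AT2G06050; chromosome 2, 2359114 to 2362375, minus strand), whose loss causes male sterility, had 229, 203 and 465 CPM in the mutant-labelled libraries and 185, 161 and 165 CPM in wild type. The groups did not overlap, yet mutant-labelled replicate 3 held 2.15 times the mean of mutant-labelled replicates 1 and 2. The log2 fold change of 0.81 ± 0.33 did not pass the threshold (95% interval 0.01 to 1.61; edgeR adjusted p = 0.121). Without mutant-labelled replicate 3 it was smaller, 0.34 ± 0.10, but passed (edgeR adjusted p = 0.0442, with 0.283 as the highest over all alternatives).

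Of the enzymes that act on jasmonic acid itself, *JMT* rose and *JAR1* did not pass the test. *JAR1* (AT2G46370; chromosome 2, 19033586 to 19036683, plus strand) had 61.0, 53.8 and 70.3 CPM in the mutant-labelled libraries and 58.9, 56.3 and 58.0 CPM in wild type. The groups overlapped, and the log2 fold change was 0.10 ± 0.10, with a 95% interval from -0.14 to 0.33 (edgeR adjusted p = 0.4998). *JMT* (AT1G19640; chromosome 1, 6788885 to 6791919, minus strand) had 118, 106 and 141 counts in the mutant-labelled libraries and 4, 13 and 10 counts in wild type.

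Scaled to library size, *JMT* had 3.53, 4.93 and 3.91 CPM in the mutant-labelled libraries and 0.119, 0.288 and 0.202 CPM in wild type. Its lowest mutant-labelled library was thus far above its highest wild-type library, and unlike *OPR3* it did not peak in mutant-labelled replicate 3. The means of 4.12 ± 0.72 CPM in the mutant-labelled libraries and 0.203 ± 0.085 CPM in wild type (SD, n = 3 each) were 20.3-fold apart, or 4.28 ± 0.29 on the log2 scale (edgeR adjusted p = 0.000829), the ninth largest rise among all tested genes. *JMT* was called in all 10 alternative settings, with log2 fold changes from 4.05 to 4.59. Even so its level stayed low, and per kilobase of exon *JMT* reached 9.49%, 15.0% and 9.10% of the level of *JAR1* in the mutant-labelled libraries, against 0.331%, 0.839% and 0.570% in wild type.

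**Figure D3:**
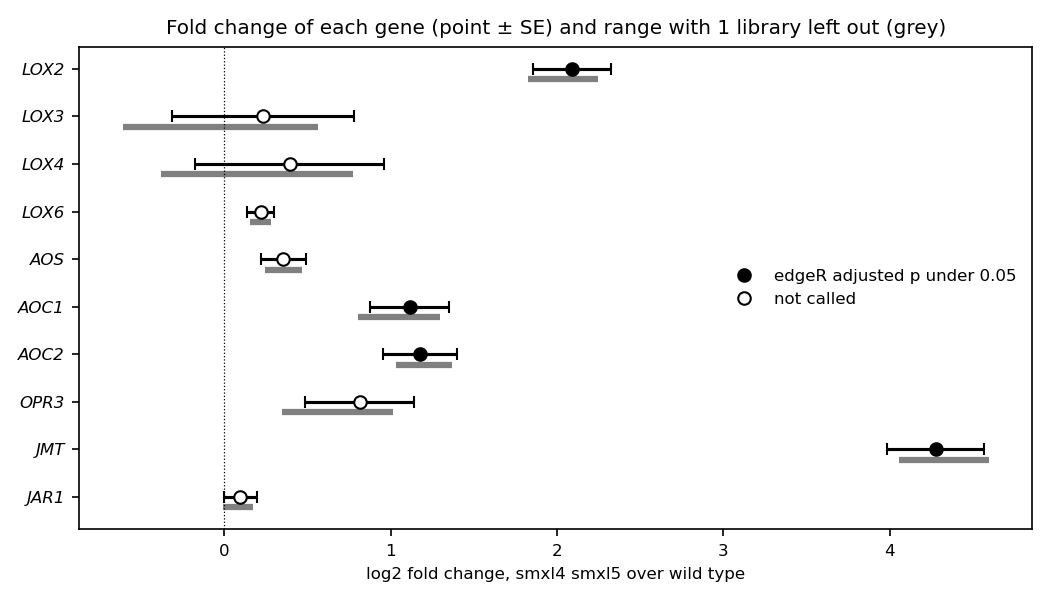
Log2 fold change of each gene, mutant-labelled over wild type (x axis), with its SE as a bar, filled where edgeR's adjusted p is under 0.05, and below it in grey the range when 1 library is left out. *JMT* at 4.28 and *LOX2* at 2.09 stand apart from the rest, and the grey bars of *LOX3* and *LOX4* cross 0.

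Levels can be compared between the genes per kilobase of exon. In the mutant-labelled libraries the order was *OPR3* (175 ± 84.6 CPM per kilobase; SD, n = 3), *AOS* (121 ± 13.6), *LOX2* (67.0 ± 20.2), *LOX6* (40.2 ± 0.14), *AOC2* (23.8 ± 5.88), *JAR1* (22.7 ± 3.04), *AOC1* (20.5 ± 6.94), *LOX3* (19.5 ± 15.1), *LOX4* (17.1 ± 12.9) and *JMT* (2.48 ± 0.43). The libraries of neighbours overlapped between *OPR3* and *AOS* and at each step from *AOC2* to *LOX4*, so the order there is not beyond their spread. In wild type it was *OPR3* (99.8 ± 7.51 CPM per kilobase), *AOS* (94.4 ± 15.2), *LOX6* (34.5 ± 2.84), *JAR1* (21.2 ± 0.48), *LOX3* (16.6 ± 3.56), *LOX2* (15.7 ± 2.48), *LOX4* (13.1 ± 2.61), *AOC2* (10.6 ± 2.00), *AOC1* (9.49 ± 1.06) and *JMT* (0.122 ± 0.051). Here neighbours overlapped between *OPR3* and *AOS* and at each step from *LOX3* to *AOC1*. *LOX2* was thus above *LOX6* in the mutant-labelled libraries and below it in wild type. With the length of the longest transcript in place of all exons, *JAR1* came to 26.5 CPM per kilobase in the mutant-labelled libraries and so above *AOC2*.

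Within the mutant-labelled group the libraries differed from each other for most of the 10 genes. Replicate 3 was the highest of the 3 for 8 genes, all but *AOS* and *JMT*, where 34.6% of all tested genes had their highest mutant-labelled value in that library. As a mean over the 10 genes, log2(CPM + 0.5) was above the mean of all 6 libraries by 0.26, 0.13 and 0.87 in mutant-labelled replicates 1, 2 and 3, and differed from it by -0.29, -0.54 and -0.43 in wild type replicates 1, 2 and 3. Of the wild-type libraries, replicate 2 was the lowest for 7 genes. The ratio of the highest to the lowest library was larger in the mutant-labelled group for 7 genes and larger in wild type for 3. The share of all tested genes was not computed for this, nor for wild type replicate 2 being lowest. The ratio was 5.07 for *LOX4*, 4.14 for *LOX3* and 2.29 for *OPR3* in the mutant-labelled libraries, against 1.502, 1.55 and 1.15 in wild type. For *JMT*, *AOS* and *LOX6* it was 1.39, 1.24 and 1.007 in the mutant-labelled libraries, against 2.42, 1.38 and 1.18 in wild type. The wild-type ratio of *JMT* rests on 4, 13 and 10 counts.

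**Figure D4:**
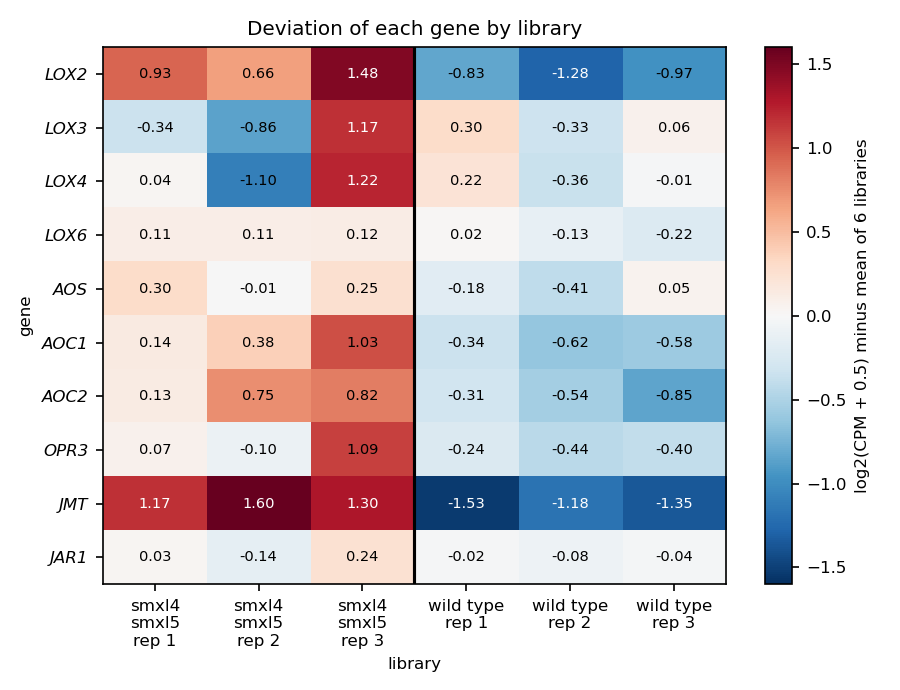
Deviation of log2(CPM + 0.5) from the mean over the 6 libraries for each gene (rows) in each library (columns), mutant-labelled on the left of the black line and wild type on the right, red above and blue below that mean. The column of mutant-labelled replicate 3 is positive for all 10 genes, from 0.12 to 1.48, while replicate 2 reaches -1.096 for *LOX4*.

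The rest of the jasmonate pathway was followed in 56 other genes, of which 53 were tested. Of these, 16 rose and 3 fell, with a median log2 fold change of 0.31, beside 11.2% higher and 13.7% lower among all genes. Without wild type replicate 2, 9 were called higher and 2 lower, beside 597 higher and 1305 lower of all genes. DESeq2 called 27 higher and 3 lower, beside 2394 higher and 2965 lower of all genes. This list, too, was written with earlier results known. In mutant-labelled replicate 3, 35 of the 53 had their highest mutant-labelled value.

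Of the genes for supply and release of the fatty acid, 3 were tested, and none passed the test in either direction. *FAD3*, a desaturase gene that makes linolenic acid, was the most abundant, with 79.1, 89.3 and 78.5 CPM in the mutant-labelled libraries and 102, 102 and 88.4 CPM in wild type (log2 fold change -0.24 ± 0.09, edgeR adjusted p = 0.0828). *DAD1*, a lipase gene of jasmonate synthesis in anthers that was singled out after its values were seen, did not pass the filter, with 2, 8 and 9 counts in the mutant-labelled libraries and 0, 0 and 1 in wild type.

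Among 7 tested relatives of the synthesis enzymes, 2 rose and 1 fell. *HPL1*, a hydroperoxide lyase gene of the branch that competes with allene oxide synthase for its substrate, had 51.9, 48.3 and 51.5 CPM in the mutant-labelled libraries and 26.7, 21.9 and 22.1 CPM in wild type, 1.103 ± 0.09 on the log2 scale (edgeR adjusted p = 0.00150). *LOX1*, a lipoxygenase gene outside the jasmonate branch, rose by 0.62 ± 0.09 on the log2 scale (edgeR adjusted p = 0.00575). *OPR2*, a reductase gene related to *OPR3*, fell, with 5.81, 5.16 and 7.12 CPM in the mutant-labelled libraries and 11.2, 11.7 and 10.2 CPM in wild type (log2 fold change -0.86 ± 0.13, edgeR adjusted p = 0.00598).

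Of 8 genes of OPDA transport and beta-oxidation 1 rose and 1 fell, each by a small amount. The acyl-CoA oxidase gene *ACX1* rose by 0.27 ± 0.08 and its relative *ACX5* fell, at -0.31 ± 0.08 on the log2 scale (edgeR adjusted p = 0.0403 and 0.0243). *KAT2*, a thiolase gene and the most abundant of the list, differed by -0.11 ± 0.07 on the log2 scale (edgeR adjusted p = 0.250). The 8 genes had a median of -0.0037.

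Genes of jasmonate removal, ester cleavage and transport included 6 that rose and 1 that fell, of 16 tested, with a median of 0.70. *ILL6*, an amidohydrolase gene that cleaves the isoleucine conjugate made by JAR1, had 96.2, 102 and 144 CPM in the mutant-labelled libraries and 57.1, 47.2 and 53.5 CPM in wild type (log2 fold change 1.118 ± 0.16, edgeR adjusted p = 0.00575). *IAR3*, which encodes a related amidohydrolase, rose by 0.65 ± 0.15 (edgeR adjusted p = 0.0183), and the methylesterase gene *MES1* rose by 0.75 ± 0.11 (edgeR adjusted p = 0.00520). *MES10*, a methylesterase gene singled out after its values were seen, had 138, 120 and 122 CPM in the mutant-labelled libraries and 81.9, 86.9 and 99.99 CPM in wild type (log2 fold change 0.50 ± 0.10, edgeR adjusted p = 0.0126). The locus AT5G05600 rose by 1.39 ± 0.28 (edgeR adjusted p = 0.0199). AT3G11180 fell, with 3.08, 2.05 and 2.11 CPM in the mutant-labelled libraries and 8.58, 8.78 and 7.14 CPM in wild type (log2 fold change -1.75 ± 0.18, edgeR adjusted p = 0.00246).

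Of 19 perception and response genes 7 rose and 0 fell, with a median of 0.49. *JAZ10*, a repressor gene induced by jasmonate, had 132, 126 and 274 CPM in the mutant-labelled libraries and 42.8, 34.1 and 32.0 CPM in wild type (log2 fold change 2.29 ± 0.35, edgeR adjusted p = 0.0101). *JAZ6* rose by 0.78 ± 0.15 and the locus AT3G22275 by 2.45 ± 0.46 (edgeR adjusted p = 0.0124 and 0.0111). *JAZ9*, the most abundant of the list, differed by 0.41 ± 0.15 (edgeR adjusted p = 0.0877). The receptor gene *COI1*, singled out after its values were seen, differed by -0.048 ± 0.061 on the log2 scale (edgeR adjusted p = 0.582).

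**Figure D5:**
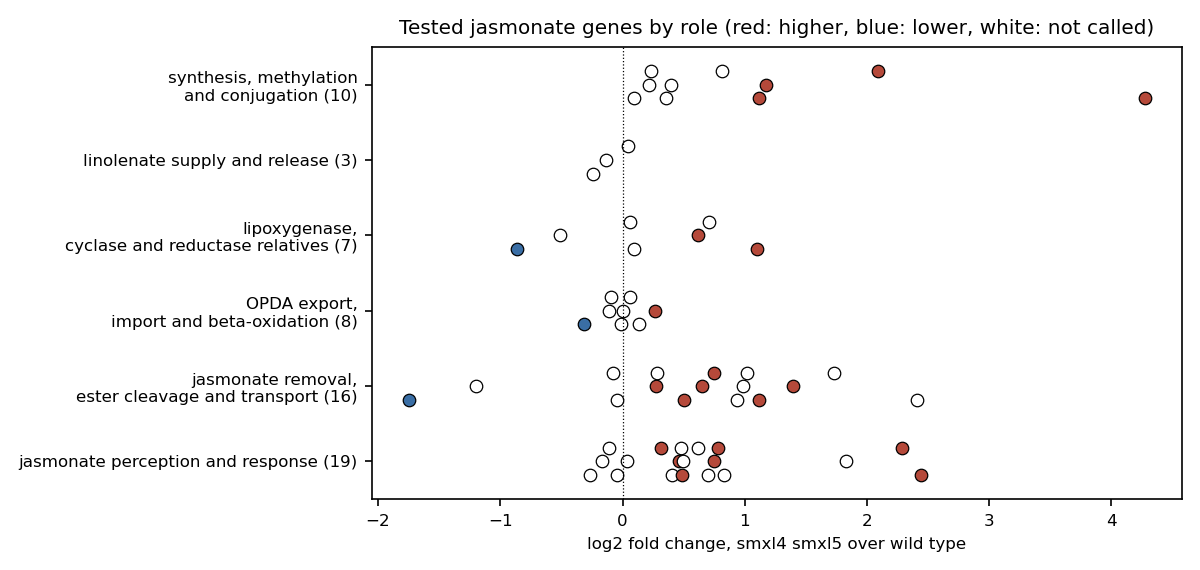
Log2 fold change, mutant-labelled over wild type (x axis), of each tested jasmonate gene, by role (rows, number of tested genes in brackets), with red for higher and blue for lower at an edgeR adjusted p under 0.05 and white for not called. The rows of removal and response hold 6 and 7 red points, the row of transport and beta-oxidation 1 red and 1 blue.

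Tissue markers moved with genotype beside these genes. All 11 photosynthetic markers fell, with a summed level of 10739 to 13648 CPM in the mutant-labelled libraries and 18558 to 19680 CPM in wild type. All 7 phloem markers fell, with sums of 268 to 294 CPM in the mutant-labelled libraries and 562 to 619 CPM in wild type. Of 9 xylem markers 8 fell, with 2574 to 3187 CPM in the mutant-labelled libraries and 4127 to 5133 CPM in wild type. Of 11 epidermal markers 4 fell, with sums of 388 to 453 CPM in the mutant-labelled libraries and 495 to 763 CPM in wild type. Of 7 floral organ markers *PI* was the only one tested and rose, *AP3* had 0 counts in every library, and the sums were 0.859 to 2.31 CPM in the mutant-labelled libraries and 0.121 to 0.685 CPM in wild type. Most of the mutant-labelled sum was *PI*, and the other 6 floral markers, all below the filter, summed to 0.299, 0.0930 and 0.166 CPM in the mutant-labelled libraries and 0.357, 0.310 and 0.0807 CPM in wild type, which overlap. The part of these differences in the results for the 10 genes was not tested.

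The authors' deposited table runs its log2 fold change as wild type over mutant, as the counts show, and all 10 genes had a negative value there. Of these, 4 had a deposited adjusted p under 0.05 in the authors' deposited table. They were *JMT* at -3.17, *LOX2* at -1.88, *AOC2* at -1.04 and *AOC1* at -0.97, with adjusted p of 1.76e-30, 1.69e-21, 1.48e-06 and 2.24e-05. The share of all genes under 0.05 in that table was not computed, so the count of 4 has no background there. DESeq2 as run here called 2394 of all genes higher and 2965 lower, with 4 and 0 of the 10 among them.

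Genes with a similar profile were sought among 18518 other genes that averaged 1 CPM or more, by the Pearson correlation of log2(CPM + 0.5) over the 6 libraries with the mean standardised profile of the 10 genes. The 6 closest were *GPAT4* (r = 0.997), AT5G55040 (0.995), *NIT3* (0.994), *ERD2* (0.989), AT2G43150 (0.988) and AT5G45410 (0.987). These libraries share the genotype difference and the high value of mutant-labelled replicate 3, and the correlation over 6 libraries is a description. Of the 6, only *NIT3* was called by edgeR. Their log2 fold changes ran from 0.07 for AT5G45410 to 1.64 for AT2G43150, so a high r does not give the size of the change. *NIT3*, a nitrilase gene, had 7.54, 6.83 and 11.3 CPM in the mutant-labelled libraries and 6.08, 4.99 and 4.99 CPM in wild type. Among the 10 genes themselves, *OPR3* was closest to the mean profile (r = 0.972) and *LOX3* farthest from it (r = 0.579). Each of the 10 is part of that mean, which raises its r, so these values do not compare with those of the other genes.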

How the data were processed

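RNA sequencing counts came from 3 libraries labelled *smxl4 smxl5* and 3 labelled wild type, grouped by the genotype label of the stem. The authors deposited raw read counts per locus. Per the submitters' processing notes, the tools were TopHat2 2.0.14, FastQC 0.11.7 and DESeq2, with TAIR10 as the build. How reads were counted, and whether by strand, is not given in the sources used here. Per the file headers, the authors' own comparison gives for each locus the averaged normalized signal, the log2 fold change and its SE, a score (the test statistic), the raw p-value and the adjusted one. Of these the log2 fold change and adjusted p-value were used.

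The 10 genes and all lists were chosen with earlier results of these data known. Counts were tested with edgeR 4.0.16 in R 4.3.3 (filterByExpr with minimum count 10 and minimum total 15, TMM, robust quasi-likelihood F test of genotype, two-sided, Benjamini-Hochberg over all genes tested at 0.05). The SE divides the log2 fold change by the square root of F, and 95% intervals use the test's degrees of freedom, without adjustment for multiple testing. The code was tested on simulated data. Genes named from each list were up to 3 with the largest rise, up to 3 with the largest fall and the most abundant tested one, and exceptions are stated. Names, exon lengths and sequence came from RefSeq TAIR10.1, where 32835 of 33602 loci were found. BLAST 2.17.0 compared the longest transcript of each locus. Loci whose listed symbol is not in that annotation are given by code. None of the 10 genes overlaps another annotated locus. Alternatives were other size factors, no filter, DESeq2 1.42.0, a replicate block, and each library left out. Between replicates, chi-square per gene was 11.8 to 35.0, above sampling noise. Wild-type descriptions all give replicate 1, so replicate numbers come from the titles.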

Additional observations from a re-analysis of the deposited data

How the results depend on the processing

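*JMT* and *LOX2* were called higher in all 10 alternatives, *AOC2* in 8 and *AOC1* in 7. With each library left out in turn, 2 to 5 of the 10 genes were called higher and 0 lower. The other pathway genes called numbered 9 to 17 higher and 2 to 4 lower, and all genes 597 to 2423 higher and 1305 to 3135 lower. Fewer libraries also lower the power. DESeq2 called 27 other pathway genes higher, against 16 in edgeR. Log2 fold changes that changed sign, none of them called, were -0.61 for *LOX3*, -0.38 for *LOX4* and -0.0070 for *JAR1* without mutant-labelled replicate 3 (with other libraries left out, up to 0.56, 0.77 and 0.17), and -0.023 for *LOX3* with a replicate block.

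Whether same-numbered libraries were grown or prepared together is not given in the labels, and the counts cannot settle it. Deviations of same-numbered libraries correlated at 0.04, 0.07 and -0.03, and mutant-labelled replicate 1 correlated best with wild type replicate 3 (0.14). With the replicate block 1355 genes were called higher, 3 of the 10 among them, and *AOC2* at 1.16 was not called (edgeR adjusted p = 0.0505). *JMT* in wild type rests on 27 counts in all.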

Other observations

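Singled out after their values were seen, several jasmonate genes outside the 10 were far higher in mutant-labelled replicate 3 than in any other library, and none of those named here was called by edgeR. *CYP94B3*, which encodes an enzyme that oxidises the isoleucine conjugate, had 1.53, 3.67 and 47.7 CPM in the mutant-labelled libraries and 3.99, 4.70 and 7.39 CPM in wild type. The repressor gene *JAZ7* had 8.08, 11.2 and 76.6 CPM in the mutant-labelled libraries and 10.04, 7.25 and 10.03 CPM in wild type. The sulfotransferase gene *ST2A* was also raised in mutant-labelled replicate 1, with 35.2, 8.83 and 87.9 CPM in the mutant-labelled libraries and 7.21, 6.76 and 10.9 CPM in wild type. The epidermal marker *PDF1*, also singled out after its values were seen, had 0.419, 1.67 and 16.4 CPM in the mutant-labelled libraries and 7.33, 8.98 and 11.7 CPM in wild type, so it too was highest in mutant-labelled replicate 3. Of the 11 epidermal markers, all but *CER1* and *MAH1* had their highest mutant-labelled value in replicate 3. The share of all tested genes with that was 34.6%. Only *PDF1*, *PDF2*, *LCR* and *BDG1* were higher there than in every wild-type library. *BDG1* had 6.68 CPM in mutant-labelled replicate 3 against 3.93, 5.50 and 3.98 CPM in wild type. *CER1* had 23.5, 26.4 and 24.4 CPM in the mutant-labelled libraries and 100, 113 and 63.1 CPM in wild type. The part of epidermal tissue in the values of mutant-labelled replicate 3 was not tested.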
